A study of Mus musculus with 19 samples.

Results

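The genes described here were 10 members of the BCL2 family, the proteins that set whether a cell keeps its mitochondria intact or dies by apoptosis. They were chosen by name for their known roles. The members listed as pro-survival were Bcl2, Bcl2l1, Bcl2l10 and Mcl1. The pore-forming effectors were Bax and Bak1, and the BH3-only members were Bid, Bcl2l11, Bbc3 and Pmaip1. Of the 10, 9 had a row in the table of 25891 genes, and Bak1 was not analysed here.

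RNA had been sequenced from mouse MII oocytes and 2cell embryos of females labelled Het or KO for Cpeb3, whose protein CPEB3 binds the 3′UTRs of mRNAs and acts on their polyadenylation and translation. There were 5 Het and 5 KO libraries of MII oocytes, and 5 Het and 4 KO libraries of 2cell embryos. According to the methods the females were BL6, 6 to 10 weeks old, and received 5 IU PMSG and, 48 h later, 5 IU hCG. The comparison of Het with KO addressed what the loss of maternal CPEB3 does to the RNA of the egg and of the embryo made from it. The KO was a conditional one, with loxP-flanked Cpeb3 and a Cre transgene driven by the Zp3 promoter, which is active in growing oocytes. The study writes the controls of its sequencing as CPEB3+/-, which would keep 1 functional allele and not be wild type. Its methods count LoxP/- with Zp3-Cre+/- as the wild-type genotype, so the exact control genotype is not settled here. Each library pooled the RNA of 5 cells according to the methods. The methods obtain MII oocytes in vivo after this hCG and also describe maturation in vitro. Their RNA-seq section does not say which were sequenced. By the methods, zygotes were cultured in M16 medium and 2cell embryos collected 37 h after hCG. The females had been mated with males, so Het and KO name the mother and not the embryo. No source used here said that libraries of a group came from separate females, so the p-values measure only the spread between these libraries, which may be technical.

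In healthy cells the pro-survival proteins hold the effectors in check at the outer mitochondrial membrane. BH3-only proteins, which are made or activated under stress, bind the pro-survival proteins or the effectors, and freed effectors open pores that release cytochrome c and start the caspase cascade. In oocytes and early embryos this balance decides which cells survive DNA damage and culture stress, and Bcl2l10 is known as the family member most typical of oocytes.

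Depth, estimated from the steps between low values, was 17.2 to 23.6 M fragments a library (M, mega) with a median of 19.7 M. Values are FPKM (fragments per kilobase of exon and per M mapped fragments) as deposited, so levels can be set side by side between genes. The library kit captured mRNA according to the methods. Whether capture varied with poly(A) tail length, and so with label or stage, was not tested. The labelled stages were borne out by 9 oocyte markers, which summed to 851 to 1158 FPKM in MII and 101 to 162 FPKM in 2cell libraries, and by 7 2cell markers, which summed to 37.9 to 62.1 and 418 to 805 FPKM. Of 13 cumulus and granulosa cell markers, 10 had a row, and their sum was 0.255 to 0.717 FPKM over all libraries. Of 6 blood markers, the α-globin genes Hba-a1 and Hba-a2 had a row. Their sum was 0.0512 to 0.428 FPKM in MII libraries but 46.2 to 146 FPKM in 2cell libraries, in both genotypes, and its part in any stage change below was not tested. Cpeb3 itself did not follow the labels. It was at 0.0755 ± 0.0240 FPKM (SD, n = 5) in Het and 0.162 ± 0.0325 FPKM (n = 5) in KO MII libraries, without overlap, and at 0.0303 ± 0.0149 FPKM (n = 5) and 0.0554 ± 0.0129 FPKM (n = 4) in the 2cell libraries, which overlapped. The table gives 1 value a gene, so the loxP-flanked part was not measured apart from the rest of the gene, and these values do not check the deletion. The groups are called Het-labelled and KO-labelled. The direction of calls over all genes moved with the scaling. By trimmed means 588 genes were called higher and 767 lower in KO-labelled MII libraries, and 1111 and 478 when libraries were brought to an equal sum of FPKM. In 2cell libraries the split was 1198 and 1339, and 2423 and 573 with that scaling.

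CPEB proteins bind U-rich elements in 3′UTRs, so the members' longest annotated 3′UTRs (GENCODE vM21, GRCm38) were searched on the transcript strand for UUUUAU, for the longer motifs UUUUAAAU and then UUUUAAGU, and for the motifs UUUUACU and also UUUUCAU. Of 17028 genes with an annotated 3′UTR, 63.4% held at least 1 of these motifs and 53.8% held UUUUAU. Bcl2l10 had none in 499 bases, Bax none in 224, Bid none in 1670 and Bbc3 none in 971. Bcl2l1 had 1 in 1477 bases, Mcl1 1 in 2353, Bcl2 2 in 5086, Bcl2l11 4 in 4218 and Pmaip1 6 in 2192. The sites of Bcl2l1, which differed between the labelled genotypes in 2cell embryos, of Mcl1, which had the largest fitted stage change of the members on the log2(FPKM + 0.1) scale, and the last site of Bcl2l11, which lay close to the 3′ end, are shown 5′ to 3′ with the motif in capitals.
Bcl2l1: uucgagacuaguUUUUAUuccuugugaaga
Mcl1: auacguuuauacUUUUAUuaguuugcucca
Bcl2l11: guucuuaaugaaUUUUAUauaaauaaaacu
On GRCm38 the Bcl2l1 site was chr2:152780939-152780968 on the minus strand, with 283 bases from the motif to the end of the 3′UTR. The Mcl1 site was chr3:95662329-95662358 on the plus strand, 830 bases from the end. The Bcl2l11 site was chr2:128162503-128162532 on the plus strand, 27 bases from the end. The A-rich motifs AAUAA and AUUAAA, which hold the core of polyadenylation signals, were present in 92.1% of all 3′UTRs and in those of all 9 members, 13 times in Bcl2, 6 times in Mcl1, 2 times in Bcl2l10 and 1 time in Bcl2l1. These matches are letters in a window and not shown binding sites.

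One gene made up nearly all of the family's RNA. Bcl2l10 (chr9:75347758-75351633, plus strand), listed here as pro-survival, was at 1569, 1519, 1585, 1505 and 1543 FPKM in the 5 Het-labelled MII libraries, which is 1544 ± 33.3 FPKM (SD, n = 5). The action of its protein in these cells was not tested. The 5 KO-labelled MII libraries had 963, 1450, 1363, 1593 and 1609 FPKM, or 1396 ± 263 FPKM. The groups overlapped, and the lowest library was KO-labelled A. Bcl2l10 ranked 2 to 4 among the 25891 genes in Het-labelled and 2 to 7 in KO-labelled MII libraries, and took 99.6 to 99.9% of the summed FPKM of the 9 members over these 10 libraries.

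In 2cell embryos Bcl2l10 was at 424, 225, 236, 170 and 172 FPKM in Het-labelled and 342, 337, 371 and 198 FPKM in KO-labelled libraries. Het-labelled library A stood above all others, and the genotypes overlapped. Its share of the members' sum was 89.8 to 97.5% in Het-labelled and 90.8 to 96.7% in KO-labelled libraries, and its rank among all genes 44 to 113 and 44 to 75. Bulk RNA from pooled cells does not separate fewer cells holding an mRNA from less of it in each cell.

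Mcl1 (chr3:95658788-95663177, plus strand), a short-lived pro-survival protein, was the other pro-survival gene with an appreciable level, and in embryos alone. Its Het-labelled MII libraries had 0.201, 0.512, 0.345, 0.532 and 0.501 FPKM and the KO-labelled ones 0.938, 0.623, 0.728, 0.478 and 0.510 FPKM. In 2cell libraries the values were 7.98, 9.68, 15.6, 15.9 and 12.5 FPKM for Het-labelled and 13.7, 11.4, 8.97 and 15.6 FPKM for KO-labelled embryos. Every 2cell library was above every MII library, while within each stage the genotypes overlapped.

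Bcl2l1 (chr2:152780668-152831729, minus strand) encodes the pro-survival protein BCL-XL in its long form. In MII oocytes it was at 0.166, 0.344, 0.191, 0.379 and 0.281 FPKM in Het-labelled and 0.536, 0.464, 0.359, 0.407 and 0.365 FPKM in KO-labelled libraries, which overlapped. In 2cell embryos it was at 0.436, 0.361, 0.297, 0.326 and 0.311 FPKM in Het-labelled and 0.757, 0.667, 0.762 and 0.767 FPKM in KO-labelled libraries. All 4 KO-labelled embryo libraries were above all 5 Het-labelled ones. The table sums the 9 annotated transcripts of the gene, so its long pro-survival and short pro-death forms were not separated.

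Bcl2 (chr1:106538178-106714275, minus strand), the pro-survival gene that names the family, was at most 0.00539 FPKM in any library. By the estimated depth this is less than 1 fragment in every library, at most 0.932, and 3 fragments at the median depth would correspond to 0.0166 FPKM over its 9157 exon bases. Listed values of less than 1 fragment, such as 0.0518 in a KO-labelled MII library, show that this conversion is approximate for Bcl2. Bcl2 mRNA was not detectable at this depth in either stage.

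Bax (chr7:45461697-45466899, minus strand), the effector with a row, was at 0.818, 1.29, 0.687, 0.779 and 0.785 FPKM in Het-labelled and 1.70, 1.33, 1.44, 0.884 and 1.2 FPKM in KO-labelled MII libraries. The groups overlapped through Het-labelled library B, which lay above KO-labelled libraries D and E. The 2cell libraries had 0.977, 0.861, 0.629, 0.590 and 1.06 FPKM in Het-labelled and 0.682, 0.75, 1.04 and 1.29 FPKM in KO-labelled embryos, again with overlap. Of the Bax exon bases, 192 (12.2%) are shared with a gene model on the same strand, Gm45808, which has no values here.

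Bcl2l11 (chr2:128126038-128162548, plus strand), which encodes BIM, was at 0.389 ± 0.0731 and 0.379 ± 0.109 FPKM (SD, n = 5 each) in Het-labelled and KO-labelled MII libraries. It was at 0.583 ± 0.142 (n = 5) and 0.560 ± 0.180 FPKM (n = 4) in the 2cell libraries, with overlap between the genotypes in each stage. Bbc3 (chr7:16308393-16318206, plus strand), which encodes the p53 target PUMA, was listed at 0 in all 10 MII libraries and at 0 to 0.0439 FPKM in the 9 2cell libraries, under the 0.0718 FPKM that 3 fragments allow at the median depth.

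Bid (chr6:120891930-120916854, minus strand), whose protein is activated by caspase-8, was at 0.0407, 0.0653, 0.0250, 0.0126 and 0.0143 FPKM in Het-labelled and 0.176, 0.0462, 0.111, 0.0954 and 0.0721 FPKM in KO-labelled MII libraries. The KO-labelled values were mostly higher, but library B lay among the Het-labelled ones. In 2cell embryos Bid was at 0.353 ± 0.144 FPKM (SD, n = 5) in Het-labelled and 0.289 ± 0.0634 FPKM (n = 4) in KO-labelled libraries. Bid shares 628 exon bases (17.7%) with Bcl2l13 on the opposite strand, which was at 0.432 to 0.689 FPKM in the 4 group means. The counting was not stated to use strand, so reads there cannot be assigned to either gene.

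Pmaip1 (chr18:66458604-66465551, plus strand) encodes NOXA, the BH3-only protein that binds MCL1. In MII oocytes it was at 0.0211, 0, 0.0365, 0.0630 and 0 FPKM in Het-labelled and 0.0568, 0.102, 0.230, 0.261 and 0.204 FPKM in KO-labelled libraries. These are an estimated 0 to 3.53 fragments against 3.53 to 14.9 fragments, with 1 KO-labelled library, A, inside the Het-labelled range. In 2cell embryos it was at 0.919, 1.25, 1.62, 1.75 and 1.76 FPKM in Het-labelled and 1.16, 1.09, 1.34 and 1.34 FPKM in KO-labelled libraries, and the groups overlapped.

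**Figure D1:**
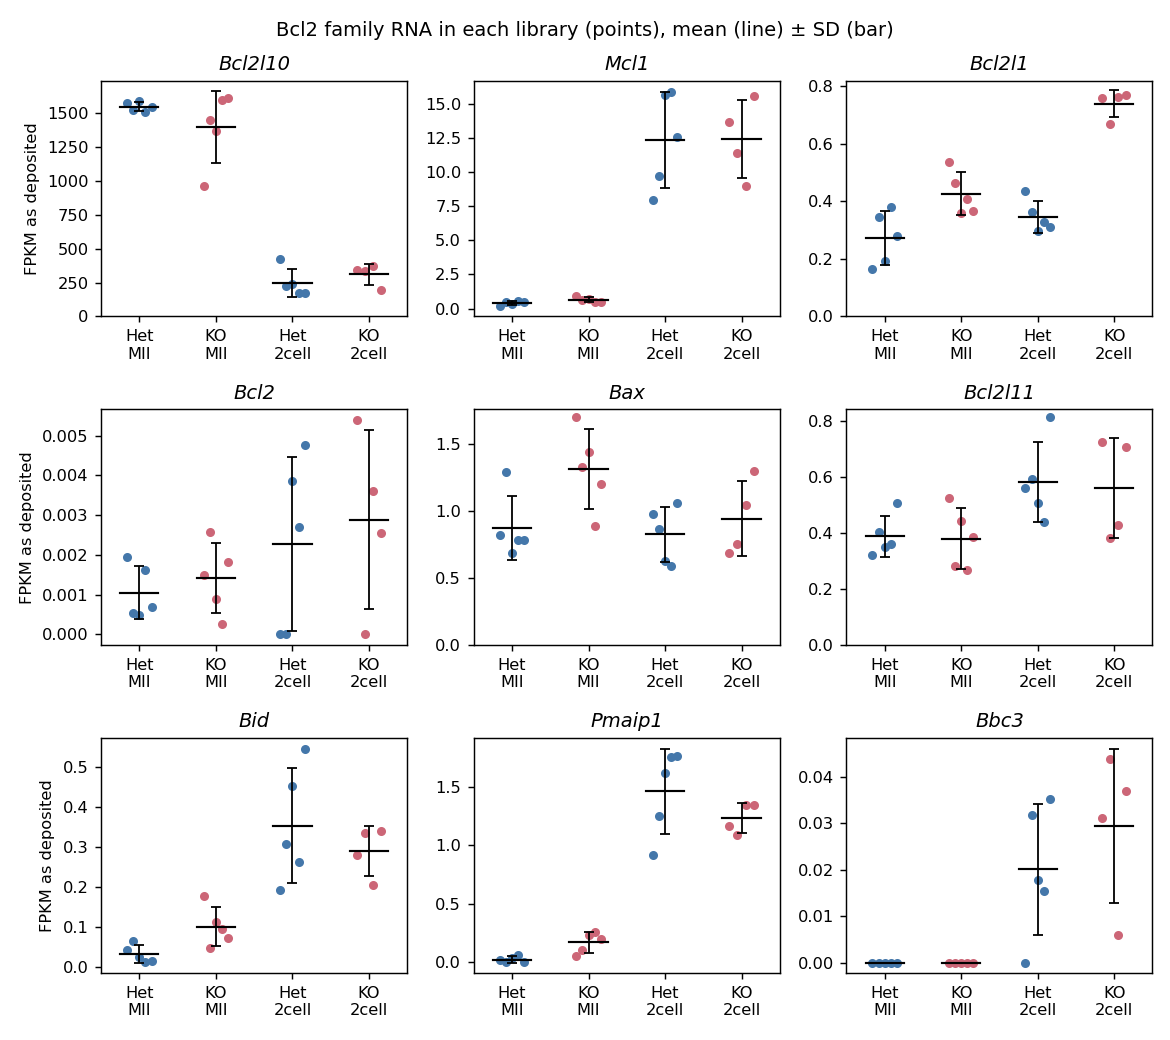
FPKM as deposited (vertical axis, linear and on its own scale in each panel) of the 9 members in each library, by label and stage (horizontal axis). Points are libraries (blue Het, red KO), lines means and bars 1 SD, with 5 libraries a group and 4 for KO 2cell. Bcl2l10 is at 963 to 1609 FPKM in MII and 170 to 424 FPKM in 2cell libraries, and all 4 KO 2cell libraries lie above the Het ones for Bcl2l1.

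In order of mean FPKM, the members in the Het-labelled MII libraries ran Bcl2l10, Bax, Mcl1, Bcl2l11, Bcl2l1, Bid, Pmaip1 and Bcl2, with Bbc3 listed at 0. Bcl2l10 and Bax each stood clear of the next gene, while the ranges of Mcl1, Bcl2l11 and Bcl2l1 overlapped from one to the next, as did those of Bid and Pmaip1. In Het-labelled 2cell libraries the order was Bcl2l10, Mcl1, Pmaip1, Bax, Bcl2l11, Bid and Bcl2l1, then Bbc3 and Bcl2. Bcl2l10 and Mcl1 stood clear there, and each neighbouring pair from Pmaip1 to Bcl2l1 overlapped. In KO-labelled 2cell libraries Bcl2l1 stood between Bax and Bcl2l11. Without Bcl2l10, the pro-survival members summed to 0.369 to 0.912 FPKM in Het-labelled and 0.877 to 1.48 FPKM in KO-labelled MII libraries, and to 8.41 to 16.2 and 9.74 to 16.3 FPKM in 2cell libraries. Bax and the BH3-only members summed to 1.10 to 1.76 and 1.51 to 2.46 FPKM in MII, and to 2.65 to 4.21 and 2.60 to 3.72 FPKM in 2cell libraries.

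In MII oocytes no member tested was called between the labels. A gene was called when its adjusted p in limma (Benjamini-Hochberg over all genes tested) was under 0.05 and its fold change over 1.5. Of the 9 members, 5 passed the filter of at least 0.1 FPKM in 5 libraries, and 0 were called, where 12.9% of 10515 genes were. At an unadjusted p under 0.05 the number was 3 of 5, where 37.1% of all genes tested had such a p. None of the 5 had genotypes that did not overlap, which 16.3% of all genes tested had. Bax had a log2 fold change of 0.45 (SE 0.165, adjusted p = 0.0763), Bcl2l1 0.45 (SE 0.165, adjusted p = 0.0736) and Mcl1 0.48 (SE 0.211, adjusted p = 0.123). Their intervals of 95% confidence ran from 0.08 to 0.82, 0.09 to 0.82 and 0.02 to 0.95. Bcl2l10 had -0.27 (interval -0.63 to 0.09) and Bcl2l11 -0.12 (interval -0.46 to 0.22). With libraries brought to an equal sum of FPKM, which raised the median of all genes to 0.15, Bax was called at 0.61 (adjusted p = 0.0345). With the GC trend removed Bax was at 0.14 (adjusted p = 0.458) and Bcl2l1 at 0.25 (adjusted p = 0.225). The signs of Bcl2l10 and Bcl2l11 turned with at least 1 other scaling.

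The remaining members of MII oocytes lay under the filter. Mean Pmaip1 was 0.0241 FPKM in Het-labelled and 0.171 FPKM in KO-labelled libraries, with an unadjusted two-sided exact permutation p of 0.0159 (n = 5 and 5, 252 splits, smallest possible p 0.00794). The Het-labelled mean was under the 0.0558 FPKM that 3 fragments give at the median depth, so no fold of the means is given. Without a filter on low values limma gave a log2 fold change of 1.03 (SE 0.260, adjusted p = 0.0412), which would be called. Mean Bid was 0.0316 FPKM, also under its level of 3 fragments (0.0429 FPKM), and 0.1 FPKM, with the same exact permutation p of 0.0159. Its log2 fold change without the filter was 0.54 (SE 0.165, adjusted p = 0.0776). These were the 2 members tested in this way, because their KO-labelled means were above the level of 3 fragments, so both were kept through the group where they are high. That choice favours a difference, so no call is made from these values. Pmaip1 reached 0.1 FPKM in 4 libraries, all KO-labelled, 1 fewer than the filter asked for. The sum of the 7 2cell markers was also higher in KO-labelled MII libraries, at 46.6 to 62.1 FPKM against 37.9 to 45.0 FPKM. Of the 5 tested, the 3 called higher were the related genes Zscan4c, Zscan4d and Zscan4f. Their part in the Pmaip1 and Bid values was not tested. Bcl2 and Bbc3 were under the level of 3 fragments in both groups and no fold is given.

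In 2cell embryos 1 of 7 members tested was called, Bcl2l1, which was higher in KO-labelled embryos. All genes gave 18.1% called in either direction and 8.53% called higher, out of 14051. Bcl2l1 rose by 0.88 on the log2 scale (SE 0.162, interval 0.52 to 1.24, adjusted p = 0.00704), a fold change of 1.84 after scaling, and was higher in 4 of 4 KO-labelled libraries than in any Het-labelled one. Unscaled mean FPKM was 0.346 ± 0.0557 (SD, n = 5) against 0.738 ± 0.0478 (n = 4), which rested on an estimated 23.4 to 36.8 and 56.5 to 67.6 fragments. It was the 1 member of 7 whose genotypes did not overlap, which 20.0% of all genes tested shared. The call held in 9 of 9 fits that each left out 1 library (log2 fold change 0.82 to 0.96, adjusted p 0.00567 to 0.0224) and with 3 other scalings (0.81 to 1.16). With the trend of values on GC content removed it was 0.60 (adjusted p = 0.0420), just past the limits. With a pseudocount of 1 FPKM, above the level of the gene, the log2 fold change was 0.35 and under the 1.5-fold limit. Among the stage markers, 1 of 9 oocyte markers, Ooep, was called higher in KO-labelled embryos (0.90) and 1 of 7 2cell markers, Zscan4d, lower (-1.02). The summed oocyte markers were at 101 to 162 FPKM in Het-labelled and 130 to 159 FPKM in KO-labelled embryos, and the 2cell markers at 433 to 805 and 418 to 598 FPKM. Their part in the Bcl2l1 difference was not tested.

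The other 6 members were not called in 2cell embryos. Bcl2l10 had a log2 fold change of 0.35 (interval -0.33 to 1.02, adjusted p = 0.453), Bax 0.12 (-0.43 to 0.68) and Bcl2l11 -0.11 (-0.62 to 0.41). Mcl1 had -0.02 (-0.51 to 0.48, adjusted p = 0.970), Bid -0.21 (-0.76 to 0.35) and Pmaip1 -0.24 (-0.66 to 0.19). The signs of Mcl1, Bcl2l11, Bid and Pmaip1 turned with at least 1 other scaling, and that of Bax, whose longest transcript has 63.5% GC, turned to -0.42 (adjusted p = 0.3) with the GC trend removed. The sum scaling, which gave the largest values, raised the median of all genes to 0.26. Each of the 6 intervals held 0, and their width does not show that the genotypes were alike.

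**Figure D2:**
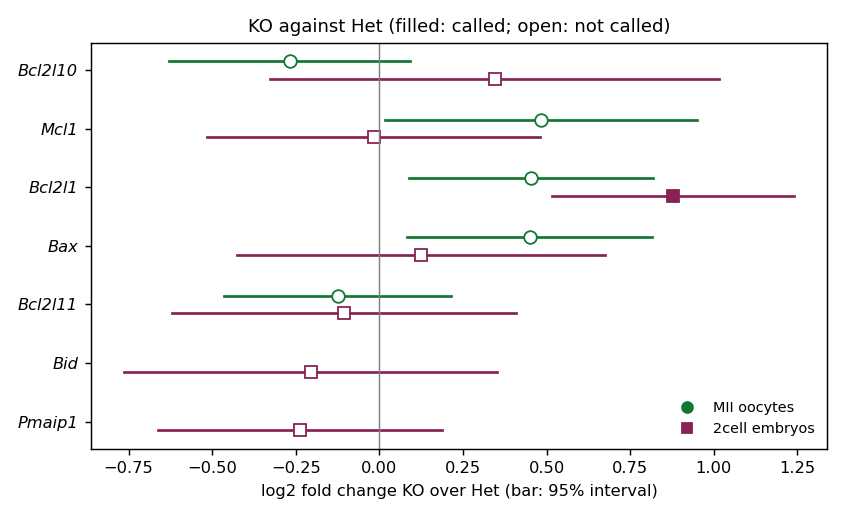
Log2 fold change of KO over Het (horizontal axis, bars 95% intervals from limma) for each member tested, in MII oocytes (green circles) and 2cell embryos (purple squares). Filled marks are called and open marks are not. Bcl2l1 in 2cell embryos at 0.88 is the 1 filled mark, and Bid and Pmaip1 have no MII mark because they were under the filter there.

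From MII to 2cell Mcl1 was called higher and Bcl2l10 lower in both labels. Pmaip1 and Bid were also called higher, but had failed the MII filter and entered this fit mainly through the 2cell libraries, where they are high. In Het-labelled libraries 4 of 7 members tested were called, 3 higher and 1 lower, where 38.2% of 15786 genes were called higher and 28.2% lower. In KO-labelled libraries 5 of 7 were called, 3 higher and 2 lower, against 38.2% and 27.0% of all genes. These shares are near the background, and the filter favoured the counts called higher through Pmaip1 and Bid. The median of all genes was 0.21 in both genotypes and -0.24 and -0.26 by quantile scaling, so a change is read against that shift.

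Among the pro-survival genes Mcl1 rose by 4.39 on the log2 scale (SE 0.226, adjusted p = 3.63e-12) in Het-labelled and by 3.90 (SE 0.239, adjusted p = 5.47e-11) in KO-labelled libraries, or 21.0-fold and 15.0-fold. Bcl2l10 fell by 2.97 (SE 0.229, adjusted p = 1.2e-09) in Het-labelled and changed by -2.33 (SE 0.243, adjusted p = 8.52e-08) in KO-labelled libraries, or 7.83-fold and 5.04-fold lower. Over 3 other scalings Mcl1 stayed between 3.53 and 4.59 and Bcl2l10 between -3.54 and -2.18 in the 2 genotypes, and both were called in 19 of 19 fits that left out 1 library. The smallest Mcl1 rise under any other setting was 3.08 in Het-labelled and 2.87 in KO-labelled libraries. Mcl1 averaged 0.418 and 0.655 FPKM in their MII libraries, so the size of its rise depends on the pseudocount. Of the oocyte markers, 8 of 9 were also called lower in each genotype, and their part in the Bcl2l10 change was not tested. Bcl2l1 had a log2 change of 0.13 in Het-labelled (interval -0.18 to 0.43) and 0.55 in KO-labelled libraries (interval 0.23 to 0.87, adjusted p = 0.00365), the latter under the 1.5-fold limit. Over 3 other scalings it ran from -0.38 to 0.29 in Het-labelled and from 0.06 to 0.68 in KO-labelled libraries, called in the latter with values as deposited, and with the GC trend removed it was 0.22 (adjusted p = 0.164) in KO-labelled libraries.

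Of the death genes, Pmaip1 and Bid were called higher in 2cell embryos of both labels. Both had failed the filter in MII libraries and entered the fit of 19 libraries mainly through the 2cell libraries, where they are high, and their Het-labelled MII means were under the level of 3 fragments, so the sizes depend on the pseudocount. Pmaip1 rose by 3.53 (SE 0.233, adjusted p = 1.32e-10) in Het-labelled and by 2.23 (SE 0.247, adjusted p = 2.06e-07) in KO-labelled libraries. Bid rose by 1.64 (SE 0.208, adjusted p = 1.04e-06) and by 0.88 (SE 0.221, adjusted p = 0.00168). The Bid change in KO-labelled libraries was 0.26 (adjusted p = 0.270) by quantile scaling, and both Bid changes fell under 1.5-fold with a pseudocount of 1. Bax had -0.28 (interval -0.69 to 0.14) in Het-labelled libraries and was called lower in KO-labelled ones at -0.59 (SE 0.209, adjusted p = 0.0177), just past the 1.5-fold limit. That Bax call was kept in 10 of 19 fits that left out 1 library (-0.75 to -0.46). It was lost without KO-labelled MII library A, B or C, without Het-labelled 2cell library A, B, D or E, and without KO-labelled 2cell library A or B. In Het-labelled libraries Bax was called lower as well by quantile scaling (-0.64, adjusted p = 0.00922) and when brought to an equal sum of FPKM (-0.77, adjusted p = 0.00166), and in KO-labelled ones it was not called with values as deposited (-0.45, adjusted p = 0.0773). With the GC trend removed it was called lower in both labels, at -0.72 (adjusted p = 0.00199) in Het-labelled and -1.33 (adjusted p = 7.49e-06) in KO-labelled libraries. Bcl2l11 had 0.28 and 0.32, with intervals that held 0.

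**Figure D3:**
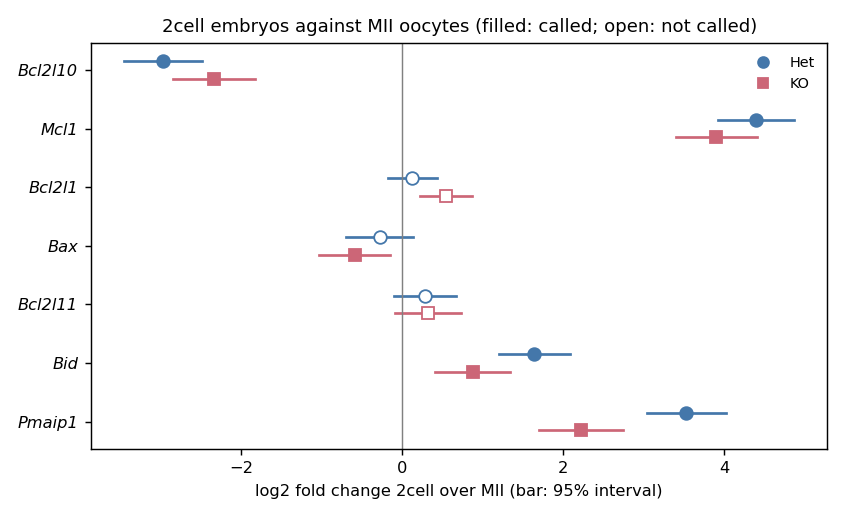
Log2 fold change of 2cell embryos over MII oocytes (horizontal axis, bars 95% intervals from limma) for each member tested, in Het (blue circles) and KO (red squares) libraries. Filled marks are called and open marks are not. Mcl1 is at 4.39 and 3.90, Pmaip1 at 3.53 and 2.23, and Bcl2l10 at -2.97 and -2.33.

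Whether a stage change differed between the labels was tested as an interaction of stage and genotype in the fit of all 19 libraries, where a call needed an adjusted p under 0.05. Of 7 members 1 was called, against 8.05% of all genes. The stage change of Pmaip1 was smaller in KO-labelled libraries by -1.30 on the log2 scale (SE 0.340, interval -2.02 to -0.59, adjusted p = 0.0248). It rests on MII values that did not pass the MII filter, with 2 of 5 Het-labelled libraries listed at 0. It was called in 19 of 19 fits that left out 1 library (adjusted p 0.00714 to 0.0480), and missed the threshold when scaled to the sum of FPKM (-1.18, adjusted p = 0.0502) and with a pseudocount of 1 (-0.34, adjusted p = 0.0824). Mean Pmaip1 was 0.0241 FPKM in Het-labelled and 0.171 FPKM in KO-labelled MII libraries, against 1.46 and 1.23 FPKM in 2cell libraries. Bid had -0.77 (adjusted p = 0.134), Mcl1 -0.49 (adjusted p = 0.408), Bax -0.31 (adjusted p = 0.569) and Bcl2l11 0.04 (adjusted p = 0.950). Bcl2l10 had 0.63 (adjusted p = 0.270). The Bcl2l1 difference between the labels, called in 2cell and not in MII libraries, was not shown to differ between the stages (0.42, interval -0.02 to 0.86, adjusted p = 0.239).

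The other genes of the pathway were read from lists by role. Of 9 further multidomain BCL2 proteins 1 was tested in MII and 4 in 2cell libraries, and of 6 further BH3-only genes 3 and 4. In MII 0 of these 4 were called in limma and 2 had an unadjusted p under 0.05, where 12.9% and 37.1% of all genes did. In 2cell embryos Bcl2l14 and the mitophagy receptor Bnip3 were called lower in KO-labelled libraries, 2 of 8 tested, where 9.53% of all genes were called lower. Bnip3 was at 2.88 ± 0.994 FPKM (SD, n = 5) in Het-labelled and 1.48 ± 0.183 FPKM (n = 4) in KO-labelled embryos, a log2 fold change of -0.91 (adjusted p = 0.0228) that was called in 7 of 9 fits with 1 library left out. Bcl2l14, at 0.161 and 0.0443 FPKM, passed the filter through the Het-labelled libraries, where it is high, and was called in 2 of the 5 such fits in which it passed. Both were named after their values were seen, since they miss the 2-fold limit.

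Of 18 genes of the caspase pathway, including proteins at or released from the mitochondria, caspases and their inhibitors, 14 were tested in each stage. In both stages 0 were called higher and 3 lower in KO-labelled libraries, with a median log2 fold change of -0.16 in MII and -0.26 in 2cell, where the median of all genes was 0.01 and 0.00. Of all genes 7.29% were called lower and 5.59% higher in MII, and 9.53% lower in 2cell libraries. The called genes were Birc2, Cycs and Vdac2 in MII and Casp6, Cycs and Vdac2 in 2cell libraries. They were named because they were so few, after their values were seen, and they do not share one direction of action. Cycs encodes cytochrome c and Casp6 an executioner caspase, while Vdac2 is a channel that binds BAK, and Birc2 encodes an inhibitor of apoptosis. Cycs was at 13.9 ± 0.830 and 9.08 ± 0.905 FPKM (SD, n = 5 each) in Het-labelled and KO-labelled MII libraries without overlap, a log2 fold change of -0.71 (adjusted p = 0.000540) that held in 10 of 10 fits with 1 library left out. In 2cell embryos its change was -0.66 (adjusted p = 0.0260), held in 4 of 9. Casp6 was at 1.24 ± 0.277 and 0.586 ± 0.0914 FPKM in 2cell embryos (-0.99, adjusted p = 0.00835, 9 of 9 fits). Vdac2 had -0.63 in MII (9 of 10 fits) and -1.04 in 2cell libraries (3 of 9), and Birc2 had -0.68 (2 of 10).

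Of 13 upstream regulators 9 were tested in MII and 10 in 2cell libraries. Of all genes 12.9% were called in MII and 18.1% in 2cell libraries, where 8.53% of all genes were called higher. In MII 1 regulator was called, Mdm4, an inhibitor of p53, at -0.59 (adjusted p = 0.0450), which was kept in 2 of 10 fits with 1 library left out. In 2cell embryos 2 were called higher, Ddit3 and Atf4, and 2 lower, Mdm4 and the checkpoint kinase gene Chek2. Ddit3, which encodes the stress transcription factor CHOP, was the 1 gene of the 4 lists that was called at more than 2-fold without overlap. It was at 4.0 to 7.2 FPKM in Het-labelled and 15.2 to 17.9 FPKM in KO-labelled embryos, a log2 fold change of 1.61 (SE 0.161, adjusted p = 0.00110) called in 9 of 9 such fits. The remaining 3 were named after their values were seen. Atf4, whose protein activates Ddit3 in the integrated stress response, was at 26.5 ± 5.92 FPKM (SD, n = 5) and 46.2 ± 10.1 FPKM (n = 4), with overlap and a log2 fold change of 0.75 (adjusted p = 0.0165, 9 of 9 fits). Mdm4 had -0.81 (9 of 9 fits) and Chek2 -0.78 (5 of 9). Pmaip1 and Bbc3 are among the genes known to be induced by ATF4, CHOP or p53. In 2cell embryos Pmaip1 was not called and Bbc3 was under the filter. Whether these factors acted on either gene was not tested.

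**Figure D4:**
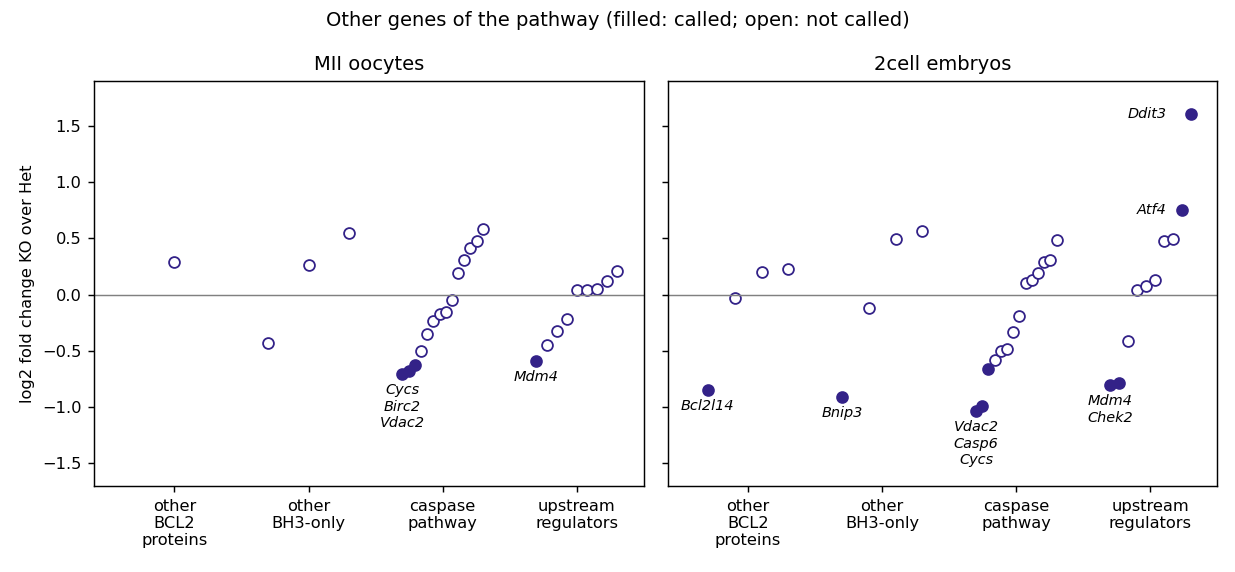
Log2 fold change of KO over Het (vertical axis) for each tested gene of 4 lists of the pathway (horizontal axis), in MII oocytes (left) and 2cell embryos (right). Filled marks are called and named, open marks are not called. Ddit3 at 1.61 and Atf4 at 0.75 are the filled marks above 0, and 3 caspase pathway genes are filled below 0 in each stage.

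Over the 19 libraries, the genes of at least 1 FPKM on average whose pattern was most like that of Bcl2l10 were Me1, Nit2 and Ms4a1, with Pearson's r of 0.991, 0.989 and 0.988 among 5279 genes compared on the scaled log2 scale. These 3 genes were lower in 2cell than in MII group means, for example Nit2 at 8.96 and 6.73 FPKM in MII and 1.19 and 1.32 FPKM in 2cell libraries. The 2 genes most like Bax were Nrn1l and Kat5, at 0.843 and 0.801. These 19 points share 4 groups, and the values are a description.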

How the data were processed

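RNA of MII oocytes and 2cell embryos was sequenced with a SMART-seq v4 kit in 19 libraries, grouped by the genotype and stage in their labels. The methods speak of quadruplicates, fewer than most labelled groups hold, and all labelled libraries were used. Per the labels and methods, the authors trimmed reads with Trim Galore 0.4.1, mapped them to GRCm38 with HISAT2 2.0.5 and deposited FPKM per gene, computed in SeqMonk. Low values sat within 0.05 of whole fragments in 43.0% of cases (10% by chance), from which depth was estimated. The members and lists were chosen with earlier results of these data known.

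After trimmed-mean scaling of the libraries, limma 3.58.1 (R 4.3.3, variance trend) was fitted to log2(FPKM + 0.1) of all genes with at least 0.1 FPKM in 5 MII, 4 2cell or 4 of 19 libraries. Benjamini-Hochberg adjustment ran over all genes tested. Fold changes on this scale understate the change of low genes. Genotypes were compared within each stage, and stages and the interaction in 1 fit of 19 libraries. All members were named, and of other lists the genes called at more than 2-fold without overlap; others are said to be named after their values were seen. Alternatives were other scalings, filters, a pseudocount of 1, a replicate block, removal of the GC trend (loess span 0.5) and leaving out each library. A floor of 3 fragments was used, which covers counting error only. Exon bases, 3′UTRs and overlaps came from GENCODE vM21, and figures from matplotlib 3.10.9. One gene that the rule on likeness of pattern would name is not reported here.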

Additional observations from a re-analysis of the deposited data

Results flagged for a closer look

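Of 28 sets of 4 or 5 libraries tested for a library apart from its group, 3 stood out, where chance gives about 5 in 100. Het-labelled 2cell library A had 424 FPKM of Bcl2l10, and the next highest library of its group had 236 FPKM. With 1 library left out at a time the Bcl2l10 difference between the labels in 2cell embryos lay between 0.23 and 0.58 and was not called. KO-labelled 2cell library B had 0.667 FPKM of Bcl2l1, below the next lowest at 0.757 FPKM, and still above every Het-labelled library. Het-labelled MII library B had 1.29 FPKM of Bax, above the next highest at 0.818 FPKM. With 1 library left out at a time the Bax difference in MII oocytes lay between 0.38 and 0.56 and was not called. Without that library it was 0.56 (adjusted p = 0.0280 in limma), and without KO-labelled library D 0.56 (adjusted p = 0.0277), both under the 1.5-fold limit only.

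The change of Pmaip1 from MII to 2cell differed between the labels by -1.30 on the log2 scale (KO minus Het, adjusted p = 0.0248 in limma). Het-labelled MII libraries averaged 0.0241 FPKM, under the 0.0558 FPKM that 3 fragments give at the median depth. Pmaip1 had failed the MII filter and entered this fit mainly through the 2cell libraries, where it is high. Among the other settings the difference shrank to as little as -0.34, and the adjusted p in limma reached 0.0824.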

How the results depend on the processing

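The 10 MII, 9 2cell and 19 combined fits that each left out 1 library, the other scalings, filters and pseudocount gave 798 values beside those reported for members, of which 771 stayed on their side of the threshold, 7 were newly called and 20 lost their call. No called value turned sign, and 38 values that were not called did. In MII oocytes the number of members called was 0, and 1 in the fit of all libraries (Pmaip1), with no filter (Pmaip1) and when scaled to the sum of FPKM (Bax). Leaving out 1 MII library gave 0 to 1. The 1 was Pmaip1, which entered where the filter asked for 4 libraries and passed through KO-labelled libraries, where it is high, without any Het-labelled library or without KO-labelled A. In 2cell embryos the 1 call became 0 with a filter of 1 FPKM, which removed Bcl2l1, with a pseudocount of 1 and with a replicate block. In the stage change of KO-labelled libraries the 5 calls became 3 with the filter of 1 FPKM and with the pseudocount of 1, and 4 by quantile scaling (without Bid) and with a replicate block (without Bax). With values as deposited Bcl2l1 took the place of Bax. In Het-labelled libraries the 4 calls became 5, with Bax, by quantile scaling, by the sum of FPKM and with the GC trend removed, and 3 with that filter and that pseudocount. The 1 interaction call became 0 when scaled to the sum of FPKM and with the pseudocount of 1. Where no reason is given, the cause was not tested.

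Libraries with the same letter did not deviate together (correlations of -0.144 to 0.0939, 3 of 18 libraries best correlated with their own letter), so the letter did not pair them. A replicate block reduced the calls over all genes from 1355 to 824 in MII and from 2537 to 369 in 2cell libraries, and gave Bcl2l1 a log2 fold change of 0.85 (adjusted p = 0.0789) in limma. Members under about 0.1 FPKM rest on few fragments, which limits Pmaip1 and Bid in MII oocytes and Bbc3 and Bcl2 in both stages.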
